A study of Homo sapiens with 4 samples.

Results

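The genes described here encode the proteasome, its immune form, its regulatory particles and the chaperones that assemble it. They were taken as every gene on the array whose name is PSMA, PSMB, PSMC, PSMD, PSME or PSMG followed by a number, and each was read by its brightest analysed probe. Of 47 such genes on the array, 46 were analysed, out of 17938 genes with a symbol. The remaining gene, PSMA8, which encodes an alpha subunit of testis, had a single spot with a weight of 0 that was well above background on no array. The 46 genes comprised 7 of the core alpha ring, 8 of the core beta ring, 3 of the immunoproteasome, 20 of the 19S particle, 4 activators and 4 assembly chaperones.

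The expression profiles were from THP1, a monocytic leukemia cell line that carries the fusion gene MLL-AF9. Cells received siRNA on days 0, 3 and 6, were moved to a low-serum medium on day 6 and were harvested on day 8. In the knockdown treatments siRNA-A or siRNA-B targeted the fusion transcript, and control siRNA-1 or control siRNA-2 had no target. RNA pools of 5 experiments were each hybridized to 1 single-colour Agilent array, which gave 2 knockdown and 2 control arrays on 1 slide. Position on the slide and treatment cannot be told apart.

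The proteasome degrades proteins that carry ubiquitin chains. Its core is a barrel in which outer rings of alpha subunits control entry and inner rings of beta subunits hold the active sites, formed by PSMB5, PSMB6 and PSMB7. The 19S particle binds ubiquitin, removes it and threads the unfolded substrate into the core. In cells exposed to interferon gamma, and constitutively in many blood cells, PSMB8, PSMB9 and PSMB10 take the place of PSMB5, PSMB6 and PSMB7, and the resulting immunoproteasome supplies peptides for MHC class I.

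Values are log2 of the deposited intensity, unnormalized between arrays unless stated otherwise, and log2 fold changes (log2FC) are knockdown minus control. The targeted transcript was checked first. A probe in the 3′ part of MLLT3 (AF9), which the fusion retains, had a log2 intensity of 6.82 with siRNA-A, 6.87 with siRNA-B, 7.59 with control siRNA-1 and 7.61 with control siRNA-2. It was lower in both knockdown arrays, with a log2FC of -0.76 and a limma adjusted p of 0.0639 (standard error 0.11), and it detects wild type MLLT3 as well. Of 10 monocytic marker genes, 8 were analysed and all 8 were well above background on every array. Of 4 T cell, 4 B cell, 3 NK cell and 4 erythroid markers, 4, 3, 1 and 2 were also well above background on every array, and 0 passed the threshold given below. The T cell markers were dim, with log2 intensities from 5.52 (CD3G) to 6.44 (CD3D), beside 7.47 (CD14) to 13.34 (CD33) in the monocytic ones. The B cell marker CD79A reached 10.82 and the NK cell marker NKG7 12.18. Among the analysed monocytic markers 1 passed that threshold, CD14, a receptor for bacterial lipopolysaccharide (log2FC 1.05). In such bulk RNA, fewer cells of a type and less RNA per cell cannot be told apart.

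No proteasome gene passed the threshold of an unadjusted p under 0.005 in limma, in either direction. Of all genes 1.33% did, a share that amounts to less than 1 of 46 genes. The smallest adjusted p of the 46 genes was 0.547. At an unadjusted p under 0.05, 2 of them were lower, where 4.74% of all genes were, and 0 were higher, where 3.26% were. These were PSMA4, of the core alpha ring, and PSMD4, a ubiquitin receptor of the 19S particle. Both depended on the fit: PSMD4 alone remained under 0.05 with the background-subtracted signal scaled to the 75th percentile, and no gene did with that signal unscaled or without siRNA-A, control siRNA-1 or control siRNA-2, while without siRNA-B there were 4, PSMA3, PSMA4, PSMA6 and PSMD4. The standard errors of the log2FC ranged from 0.11 to 0.15, so that the 95% confidence interval of the other 44 genes covered 0 and reached down to -0.58 and up to 0.45 at most. Differences within these bounds could not be told from 0 with 2 arrays per group. An exact permutation test of such a design, two-sided, cannot give a p under 0.33, whereas the p of limma rest on a t distribution.

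**Figure D1:**
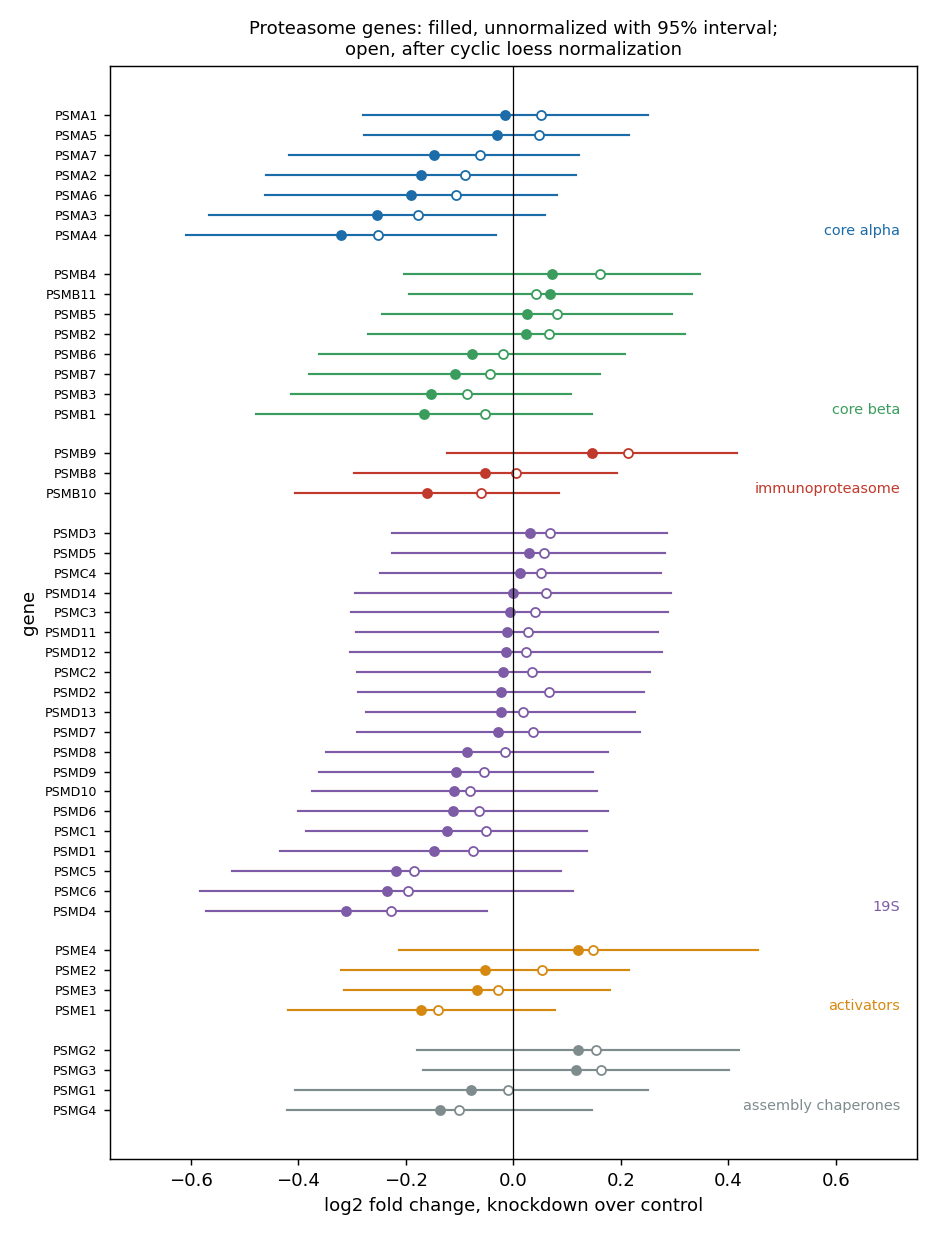
Log2FC of each proteasome gene (x axis) by role, with its 95% confidence interval in limma. Filled points are unnormalized and open points are after cyclic loess normalization; the intervals of PSMA4 and PSMD4 lie below 0 and all others cover it. PSMB11 was dim, and 12 genes lie below 0 unnormalized and above 0 after normalization.

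The direction of the small differences depended on the scaling of the arrays. Without normalization 35 of the 46 genes had a log2FC below 0 and 11 above, beside 10086 below and 7852 above among all 17938 genes. The median was -0.06, beside -0.02 over all genes. With an array left out, the median of the 46 genes ranged from -0.13 without control siRNA-1 to -0.02 without control siRNA-2, beside -0.06 and 0.01 over all genes. After cyclic loess normalization 23 lay below and 23 above, beside 8917 below and 9021 above among all genes. The median was then -0.0026, beside 0.00094 over all genes. The groups were apart with the knockdown arrays on the lower side for 13 of the 46 genes (28.3%), beside 21.2% of all genes, and with the knockdown arrays on the upper side for 1 gene (2.17%), beside 15.0%. After cyclic loess normalization these counts were 10 below and 10 above (21.7% each), beside 20.2% and 21.4% of all genes. The proteasome genes were thus close to the background in either direction once the arrays were normalized. Genes on the lower side on both scales numbered 8 (17.4%), namely PSMA3, PSMA4, PSMA6, PSMB3, PSMB10, PSMC1, PSMD4 and PSME1. PSMB9 was the 1 gene on the upper side on both (2.17%). The share of all genes on the same side on both scales is not available here, so neither count is read as a difference.

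Bright probes as a whole were lower in the knockdown arrays. Among 473 genes with a mean log2 intensity of at least 15 the median log2FC was -0.10, and among 1246 genes between 13 and 15 it was -0.07. It was -0.03 among 3077 genes between 11 and 13, and 0.0098 among 5728 genes under 7. Of the 46 proteasome probes, 27 had a mean log2 intensity of at least 13. The 9 proteasome genes of the brightest class had a median of -0.16 and the 18 of the next class a median of -0.08. Cyclic loess normalization, which removes trends with brightness, brought all genes of the brightest class to -0.0017 and its proteasome genes to -0.06.

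**Figure D2:**
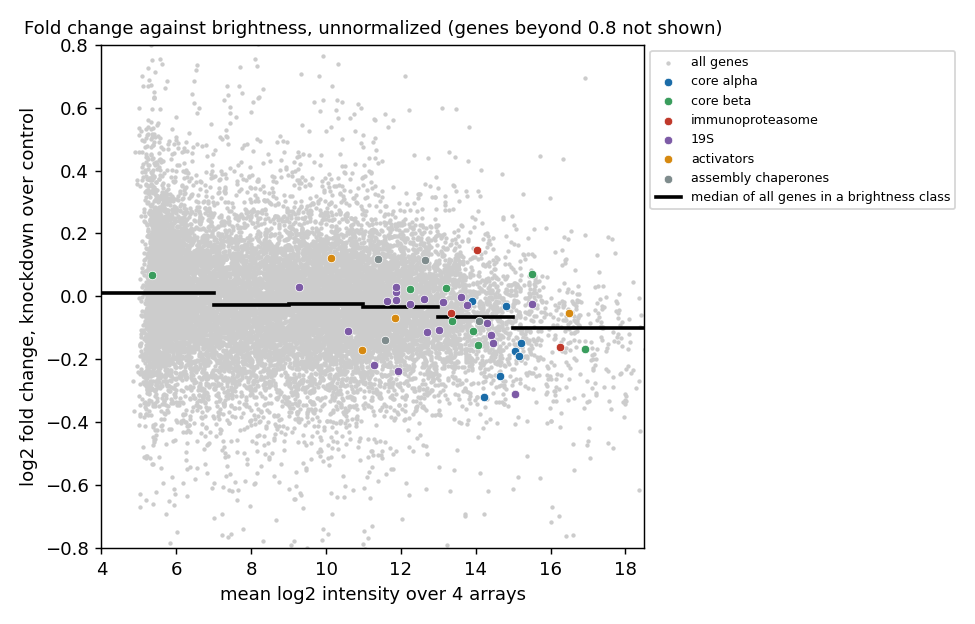
Log2FC of all analysed genes (grey) and of the proteasome genes by role (coloured) against the mean log2 intensity over the 4 arrays, unnormalized. Black lines are the medians of all genes in 6 brightness classes, which go from 0.0098 in the dimmest to -0.10 in the brightest; 73 genes beyond 0.8 in either direction are outside the axis.

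The core alpha ring was the group with the lowest median, except without siRNA-A, where the activators were lower (-0.11 beside -0.09). All 7 genes had a log2FC below 0 without normalization, beside 10086 of all 17938 genes. The median was -0.17, or -0.29 to -0.09 with an array left out. PSMA1 and PSMA5 changed sign under cyclic loess normalization, to 0.05 each, and the median was then -0.09. PSMA4 had a log2 intensity of 13.94 with siRNA-A, 14.18 with siRNA-B, 14.31 with control siRNA-1 and 14.45 with control siRNA-2. Both knockdown arrays were below both control arrays, and siRNA-A was the lowest. Its log2FC was -0.32 (standard error 0.13, 95% confidence interval -0.61 to -0.03, limma adjusted p = 0.588), and -0.25 after cyclic loess normalization. The unadjusted p of PSMA4 in limma, 0.033, became 0.10 with the background-subtracted signal scaled and 0.15 with it unscaled. The log2FC was -0.21 and -0.24 there, and -0.44 to -0.20 with an array left out. PSMA1, whose log2FC was the highest of the ring, measured 13.82, 13.99, 13.89 and 13.96 in the same order of arrays, and its groups overlapped. PSMA3, PSMA6 and PSMA2 had a log2FC of -0.25, -0.19 and -0.17, and PSMA7 and PSMA5 of -0.15 and -0.03. The alpha subunits form the gate of the barrel and the surface to which the 19S particle docks.

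Of the core beta ring, 4 genes had a log2FC below 0 and 4 above, the dim PSMB11 among the latter, with a median of -0.03. This median was -0.08 without PSMB11, 0.01 after cyclic loess and 0.04 after quantile normalization, and -0.13 to 0.07 with an array left out, so that its direction is not settled. PSMB5, which carries the chymotrypsin-like activity, had a log2 intensity of 13.11 with siRNA-A, 13.31 with siRNA-B, 13.16 with control siRNA-1 and 13.22 with control siRNA-2. Both control arrays lay between the knockdown arrays, and the log2FC was 0.03 (95% confidence interval -0.24 to 0.30). After cyclic loess normalization the log2FC of PSMB5 was 0.08, with both knockdown arrays above both control arrays. PSMB6, the caspase-like subunit, measured 13.24 and 13.43 in the knockdown and 13.32 and 13.50 in the control arrays. PSMB7, the trypsin-like subunit, measured 13.81 and 13.94 in the knockdown and 13.90 and 14.07 in the control arrays. The groups overlapped for both, and their log2FC were -0.08 and -0.11, with 95% confidence intervals of -0.36 to 0.21 and -0.38 to 0.16. In all 3 genes siRNA-A was below siRNA-B and control siRNA-1 was below control siRNA-2.

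Among the beta subunits without an active site, PSMB4 had the highest and PSMB1 the lowest log2FC. PSMB4 measured 15.48 with siRNA-A, 15.61 with siRNA-B, 15.38 with control siRNA-1 and 15.56 with control siRNA-2, and its log2FC was 0.07 (standard error 0.12). PSMB1 measured 16.79, 16.88, 16.83 and 17.18 in that order, and its log2FC was -0.17 (standard error 0.14). After cyclic loess normalization the log2FC of PSMB4 was 0.16, with both knockdown arrays above both control arrays. Without normalization the groups overlapped for both genes, and for PSMB1 control siRNA-2 alone stood high. Without that array the log2FC of PSMB1 was 0.0059, and a further probe of the gene gave -0.01. PSMB3 had a log2FC of -0.15. The brightest probe of PSMB2 gave 0.02 and its 2 other probes -0.10 and -0.30, so that no direction is read for this gene. PSMB11, a catalytic beta subunit of the thymus, had a log2 intensity from 5.29 to 5.46. It was well above background on 2 of the 4 arrays, so that no fold change is read from it.

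The catalytic subunits of the immunoproteasome were read by probes that share little sequence with those of the subunits they replace. The 60-base probes of PSMB8, PSMB5, PSMB9, PSMB6 and PSMB7 are shown because the comparison between the forms rests on them and on that of PSMB10 (chr16:67968412-67968471, minus strand), which has no open reading frame through it and is not shown. PSMB8 was read at chr6:32810023-32810490 and PSMB9 at chr6:32823918-32823977 of hg19, within the MHC region, on the minus and the plus strand. The probes of PSMB5, PSMB6 and PSMB7 lay at chr14:23495485-23495544 on the minus, chr17:4701404-4701589 on the plus and chr9:127115891-127115950 on the minus strand. Those of PSMB8 and PSMB6 cover more of the genome than their own length and thus cross an intron. Capitals mark the longest run shared with the probe of the counterpart, which was 5 bases for PSMB8 and PSMB5, 8 bases for PSMB9 and PSMB6 and 7 bases for PSMB7 and PSMB10.
PSMB8: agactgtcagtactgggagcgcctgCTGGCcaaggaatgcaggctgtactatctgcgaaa
PSMB5: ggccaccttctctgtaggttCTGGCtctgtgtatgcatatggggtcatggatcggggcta
PSMB9: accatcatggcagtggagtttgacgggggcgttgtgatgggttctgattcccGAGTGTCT
PSMB6: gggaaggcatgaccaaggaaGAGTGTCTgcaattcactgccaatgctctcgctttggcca
PSMB7: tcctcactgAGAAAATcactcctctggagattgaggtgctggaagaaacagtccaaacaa
Over all 1035 pairs of the 46 probes the longest shared run was 11 bases.

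PSMB8, the inducible counterpart of PSMB5, had a log2 intensity of 13.32 with siRNA-A, 13.31 with siRNA-B, 13.37 with control siRNA-1 and 13.37 with control siRNA-2. The groups did not overlap, but all 4 values lay close together. The log2FC was -0.05 (95% confidence interval -0.30 to 0.19, adjusted p = 0.946 in limma), and 0.0048 after cyclic loess normalization. PSMB9, the counterpart of PSMB6, measured 14.09 with siRNA-A, 14.13 with siRNA-B, 14.06 with control siRNA-1 and 13.86 with control siRNA-2. Both knockdown arrays were above both control arrays, with control siRNA-1 close to siRNA-A. Its log2FC was 0.15 (95% confidence interval -0.12 to 0.42, adjusted p = 0.817 in limma), and 0.21 after cyclic loess normalization, the highest value of all 46 genes on both scales. Without control siRNA-2 the unnormalized log2FC of PSMB9 was 0.05. PSMB10, the counterpart of PSMB7, measured 16.16 with siRNA-A, 16.19 with siRNA-B, 16.33 with control siRNA-1 and 16.34 with control siRNA-2. Its knockdown arrays were below its control arrays, and its replicates were closer to each other than the groups were. The log2FC of PSMB10 was -0.16 (95% confidence interval -0.41 to 0.08, adjusted p = 0.775 in limma), and -0.06 after cyclic loess normalization. Within the group the 3 genes thus lay on different sides of 0, and none passed the threshold.

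**Figure D3:**
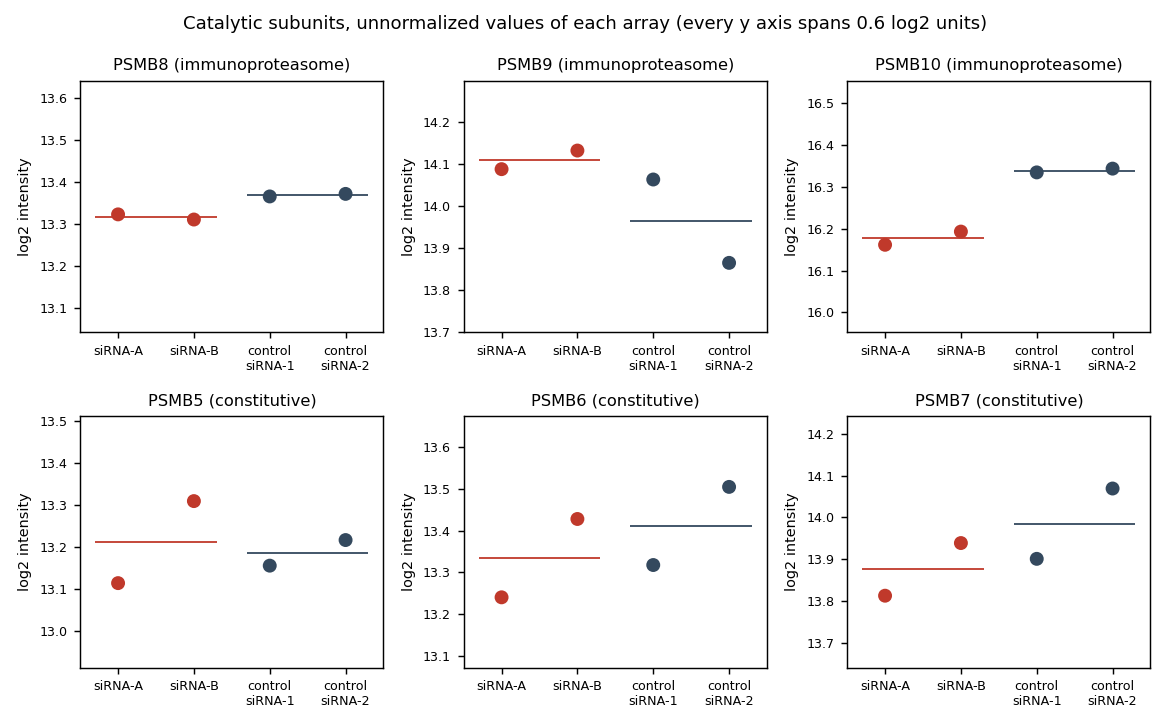
Log2 intensity (y axis) of the 3 immunoproteasome subunits (top) and the constitutive subunits they replace (bottom) on each array (x axis), unnormalized, with lines at the group means of knockdown (red) and control (dark). All y axes have the same span but different positions; the groups overlap for PSMB5, PSMB6 and PSMB7 and not for PSMB8, PSMB9 and PSMB10.

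Differences within an array do not depend on the overall scaling of that array, but a trend with brightness can remain in them. They show unequal change only. The log2 ratio of PSMB9 to PSMB6 was 0.22 higher in knockdown than in control arrays, and the corresponding change was -0.08 for PSMB8 to PSMB5 and -0.05 for PSMB10 to PSMB7. After cyclic loess normalization these changes were 0.23, -0.08 and -0.02 in that order. Relative to the control mean, the ratio of PSMB9 to PSMB6 was 0.29 with siRNA-A and 0.15 with siRNA-B, while control siRNA-1 and control siRNA-2 lay at 0.19 and -0.19. The control arrays therefore differed by more than the groups, and without control siRNA-2 the change was 0.03. The change of PSMB8 to PSMB5 was 0.03 without siRNA-B, and that of PSMB10 to PSMB7 was 0.03 without control siRNA-1. The exact permutation p, two-sided, was 0.667 for each of the 3 ratios, and 0.667 after Benjamini-Hochberg adjustment over them. These ratios were chosen after the values had been seen.

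The 19S particle had a median log2FC of -0.03, with 17 of 20 genes below 0 without normalization, beside 10086 of all 17938 genes. After cyclic loess normalization the particle had a median of 0.02, with 9 of 20 genes below 0, beside 8917 of all genes. Its 6 ATPases, PSMC1 to PSMC6, form the ring that unfolds the substrate, and had a median of -0.07 that ranged from -0.24 in PSMC6 to 0.01 in PSMC4. The 11 non-ATPase subunits had a median of -0.02, and the assembly chaperones PSMD5, PSMD9 and PSMD10 a median of -0.11. These medians were, after cyclic loess normalization, -0.0081 for the ATPases, 0.02 for the non-ATPase subunits and -0.05 for these chaperones. PSMD4 had a log2 intensity of 14.83 with siRNA-A, 14.96 with siRNA-B, 15.16 with control siRNA-1 and 15.25 with control siRNA-2. Both knockdown arrays were below both control arrays, and the gap between the groups was wider than either pair of replicates. The log2FC was -0.31 (standard error 0.11, 95% confidence interval -0.57 to -0.05, limma adjusted p = 0.547), and -0.23 after cyclic loess normalization. The unadjusted p of PSMD4 in limma, 0.025, became 0.080 with the unscaled background-subtracted signal. The log2FC was -0.27 there, and -0.38 to -0.24 with an array left out. PSMD3, with the highest log2FC of the particle, measured 11.85, 11.93, 11.81 and 11.92 in the same order, and its groups overlapped at a log2FC of 0.03. PSMD14, the deubiquitinase that releases the chain before degradation, had a log2FC of -0.00052, with a 95% confidence interval of -0.29 to 0.29. PSMC5 and PSMC6 had a log2FC of -0.22 and -0.24, but siRNA-A minus siRNA-B was 0.28 in PSMC5 and -0.26 in PSMC6.

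Activators open the core without ubiquitin recognition. PSME1 and PSME2 form the PA28 ring, which interferon gamma induces, PSME3 forms the nuclear ring, and PSME4 encodes PA200. PSME1 had a log2 intensity of 10.84 with siRNA-A, 10.91 with siRNA-B, 11.06 with control siRNA-1 and 11.03 with control siRNA-2. Both knockdown arrays were lower, and the log2FC was -0.17 (standard error 0.11) and -0.14 after cyclic loess normalization. PSME4 measured 10.06, 10.33, 9.92 and 10.23 in that order, with overlapping groups and a log2FC of 0.12 (standard error 0.15), while a further probe of the gene gave -0.02. PSME2 and PSME3 had a log2FC of -0.05 and -0.07, and PSME2 was 0.05 after cyclic loess normalization. Although PSME1 and PSME2 encode subunits of the same ring, their values in the arrays differed in order, as siRNA-B was the lower knockdown array for PSME2 and siRNA-A for PSME1.

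The assembly chaperones PSMG1 to PSMG4 guide the building of the alpha ring. PSMG2 had a log2 intensity of 11.32 with siRNA-A, 11.60 with siRNA-B, 11.27 with control siRNA-1 and 11.41 with control siRNA-2. The groups overlapped, because siRNA-A was below control siRNA-2, and the log2FC was 0.12 (standard error 0.13). PSMG4 measured 11.45, 11.54, 11.51 and 11.76 in that order, with overlapping groups and a log2FC of -0.14 (standard error 0.12). PSMG3 and PSMG1 had a log2FC of 0.12 and -0.08. The median of the 4 genes was 0.02, and 0.07 after cyclic loess normalization, but -0.03 with the unscaled background-subtracted signal and -0.10 to 0.17 with an array left out.

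Both siRNAs were compared with the same control arrays, and their values are therefore given side by side. With siRNA-A the 46 genes had a median difference of -0.11 from the control mean and with siRNA-B of -0.03, beside -0.05 and 0.01 over all genes. SiRNA-A was below both control arrays for 31 of the 46 genes, beside 47.0% of all genes, and siRNA-B for 16, beside 32.1%. After cyclic loess normalization these counts were 20 and 17, beside 37.1% and 37.3% of all genes, and the median differences -0.02 and -0.01. Above both control arrays siRNA-A was for 1 of the 46 genes and siRNA-B for 15, beside 24.5% and 38.3% of all genes, and for 16 and 18 after normalization, beside 38.0% and 39.0%. In the core alpha ring the medians were -0.29 with siRNA-A and -0.09 with siRNA-B. In the assembly chaperones they were -0.10 and 0.17, and in the immunoproteasome -0.05 and -0.06. The same medians after cyclic loess normalization were -0.16 and -0.05 in the core alpha ring, -0.01 and 0.17 in the assembly chaperones, and 0.07 and -0.06 in the immunoproteasome, where the siRNA-A value thus had the other sign. Values of PSMA4 were -0.44 with siRNA-A and -0.20 with siRNA-B, and those of PSMD4 were -0.38 and -0.24. PSMB9 had 0.12 and 0.17.

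**Figure D4:**
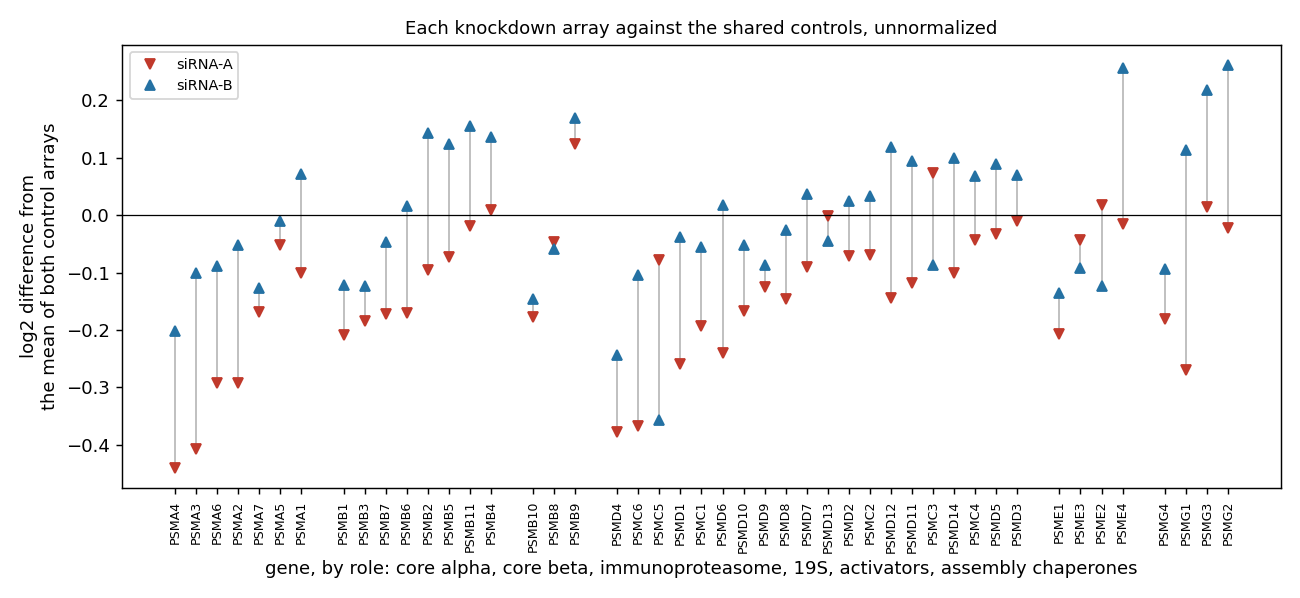
Difference of the siRNA-A array (red, pointing down) and of the siRNA-B array (blue, pointing up) from the mean of both control arrays (y axis, log2), for each proteasome gene by role (x axis), unnormalized. The siRNA-A array is the lower one for 40 of the 46 genes.

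Arrays of the same treatment differed from each other by more than the median log2FC between treatments. SiRNA-A was below siRNA-B for 40 of the 46 genes (87.0%), beside 63.9% of all genes, with a median difference of -0.13. Control siRNA-1 was below control siRNA-2 for 42 of the 46 genes (91.3%), beside 68.9% of all genes, with a median difference of -0.13 as well. After cyclic loess normalization these counts were 28 and 35 of 46 (60.9% and 76.1%), beside 51.6% and 50.2%, and the median differences were -0.03 and -0.04. For the core alpha ring siRNA-A remained the lowest array after normalization and control siRNA-2 the highest, with median deviations of -0.11 and 0.08 from the 4-array mean of each gene. The immunoproteasome had the reverse order within each treatment there, with 0.06 for siRNA-A, -0.06 for siRNA-B, 0.03 for control siRNA-1 and -0.04 for control siRNA-2.

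**Figure D5:**
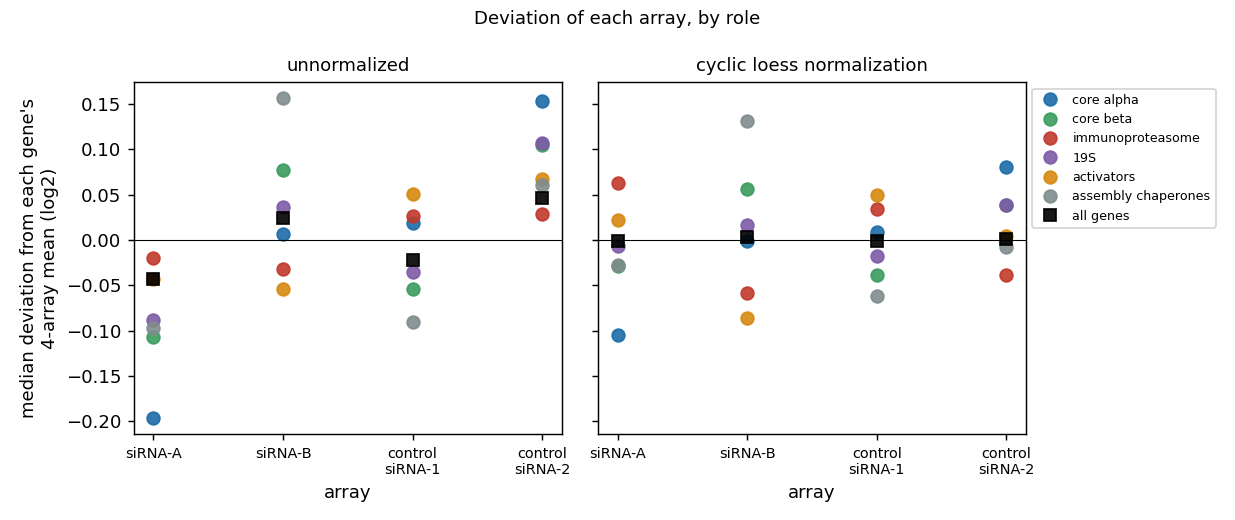
Median deviation of each array from the 4-array mean of each gene (y axis, log2) for each role and for all genes (black squares), unnormalized (left) and after cyclic loess normalization (right). For the core alpha ring the siRNA-A array is at -0.20 and control siRNA-2 at 0.15 on the left, and at -0.11 and 0.08 on the right.

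Genes that work with the proteasome were taken from lists by function, and none of them passed the threshold either. Of 12 proteasome partners, 0 passed in limma and 1 was lower at an unadjusted p under 0.05, where 4.74% of all genes were. Their median log2FC was -0.11, beside -0.02 over all genes, and ranged from -0.18 without siRNA-B to -0.05 without siRNA-A. The 1 lower gene was TXNL1, a thioredoxin-like protein bound to the 19S particle. Its log2 intensity was 13.80 with siRNA-A, 13.65 with siRNA-B, 14.00 with control siRNA-1 and 14.00 with control siRNA-2. Both knockdown arrays were lower, and the log2FC was -0.28 (standard error 0.11, adjusted p = 0.597 in limma). Its unadjusted p of 0.038 became 0.11 after cyclic loess and 0.12 after quantile normalization, and 0.055 to 0.13 with normexp background correction, either background-subtracted signal, or siRNA-B or a control array left out. The mean over the 2 probes of TXNL1 gave a log2FC of -0.13 (unadjusted p = 0.27). POMP, the chaperone of beta ring assembly, and PSMF1, an inhibitor of the core, had a log2FC of -0.23 and -0.22. The highest of the list were KIAA0368 and UBE3C, at 0.15 and 0.12. The groups were apart on the lower side for 6 of these 12 genes, beside 21.2% of all genes, and for 6 after cyclic loess normalization, beside 20.2%. On the upper side they were apart for 1 gene, beside 15.0%, and for 3 after normalization, beside 21.4%.

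Of 6 genes for ubiquitin and its activation, all had a log2FC below 0 without normalization, beside 10086 of all 17938 genes. Their median was -0.09, beside -0.02 over all genes. After cyclic loess normalization 4 of 6 were below 0, beside 8917 of all genes, at a median of -0.03. The unnormalized median ranged from -0.14 to -0.07 with an array left out. RPS27A, which encodes ubiquitin fused to a ribosomal protein, had a log2 intensity of 16.34 with siRNA-A, 16.57 with siRNA-B, 16.72 with control siRNA-1 and 16.83 with control siRNA-2. The knockdown arrays were lower, and the log2FC was -0.32 (standard error 0.12, adjusted p = 0.571 in limma), and -0.21 after cyclic loess normalization. RPS27A was the 1 gene of the 6 lower at an unadjusted p under 0.05, where 4.74% of all genes were. Its unadjusted p of 0.029 in limma became 0.064 after cyclic loess normalization, and 0.066 after quantile normalization at a log2FC of -0.23. UBB, a polyubiquitin gene, had a log2FC of -0.10. Of 10 genes for substrate delivery 5 were below and 5 above 0. The largest difference was in UFD1L, a cofactor of the segregase VCP, with 14.32 with siRNA-A, 14.49 with siRNA-B, 14.52 with control siRNA-1 and 14.72 with control siRNA-2, and a log2FC of -0.21 (standard error 0.12). For UFD1L the knockdown arrays were below the control arrays by a narrow margin. The mean over its 2 probes gave -0.33 (unadjusted p = 0.018, beside 0.13 for the brightest probe), and VCP itself had a log2FC of 0.02.

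Transcription of proteasome genes is driven by NFE2L1, a factor that NGLY1 activates by removing its sugar chains. NFE2L1 had a log2 intensity of 11.98 with siRNA-A, 12.16 with siRNA-B, 12.03 with control siRNA-1 and 12.15 with control siRNA-2, with overlapping groups and a log2FC of -0.02 (95% confidence interval -0.30 to 0.25). NGLY1 had a log2FC of -0.0056 (95% confidence interval -0.32 to 0.31). Its knockdown arrays lay on different sides of the control mean, at -0.18 with siRNA-A and 0.17 with siRNA-B. The probe of NFE2L2 had a weight of 0 and was not analysed.

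Genes linked to interferon gamma, which raises the immunoproteasome in many cells, had a median log2FC of 0.05 over 15 genes, beside -0.02 over all genes. Of the 15 genes 10 were above 0, the dim GBP1 among them, beside 7852 of all 17938 genes. The median was 0.08 after cyclic loess normalization, beside 0.00094 over all genes. The unnormalized median of the 15 genes was -0.02 without control siRNA-2 and -0.0083 without siRNA-B. The groups were apart on the upper side for 2 of the 15 genes and on the lower for 1, beside 15.0% and 21.2% of all genes. After cyclic loess normalization these counts were 5 and 0, beside 21.4% and 20.2%. TAP1, a peptide transporter encoded next to PSMB9, had a log2 intensity of 14.35 with siRNA-A, 14.44 with siRNA-B, 14.45 with control siRNA-1 and 14.27 with control siRNA-2. Its groups overlapped, and the log2FC was 0.04 (95% confidence interval -0.23 to 0.31). As for PSMB9, control siRNA-2 was the lowest array. The receptor chain IFNGR1 had a log2FC of 0.23 (unadjusted p = 0.063, adjusted p = 0.658 in limma) and was higher in both knockdown arrays. Its log2FC after cyclic loess normalization was 0.27 (unadjusted p = 0.022, adjusted p = 0.513). GBP2, an interferon-induced GTPase, differed most, with 7.24 with siRNA-A, 8.34 with siRNA-B, 8.46 with control siRNA-1 and 8.04 with control siRNA-2. The low value was that of siRNA-A alone, and the log2FC of -0.46 (standard error 0.31) was 0.09 without siRNA-A. IRF1, a transcription factor that interferon gamma induces, had a log2FC of 0.06.

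The positions of the genes were read from the probe coordinates in hg19. Chromosome 14 held 8 of the 46 genes and chromosome 17 held 7. The probes of PSME1 and PSME2 lay 6024 bases apart on chromosome 14, those of PSMB5 and PSMB11 16590 bases apart on the same chromosome, and those of PSMB8 and PSMB9 13427 bases apart on chromosome 6. The log2FC of these neighbours were -0.17 and -0.05 for PSME1 and PSME2, and -0.05 and 0.15 for PSMB8 and PSMB9. The start sites of TAP1 and PSMB9 are 487 bases apart in GRCh38.p14, on opposite strands.

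Promoter windows of 300 bases, 250 before and 50 after the start site, were taken from RefSeq (GRCh38.p14) and matched for 40 of the 46 genes. The core of the antioxidant response element, TGACNNNGC, which NFE2L1 binds, occurred on either strand in 13 of 40 windows (32.5%), beside 13.6% of 27305 genes. By role, it was in 3 of 4 windows of the activators, 2 of 3 of the assembly chaperones, 6 of 19 of the 19S particle, 1 of 3 of the immunoproteasome, 1 of 5 of the core beta ring and 0 of 6 of the core alpha ring. The gamma-activated site, TTCNNNGAA, was in 4 windows (10.0%), beside 7.88%, and the element of interferon regulatory factors, AANNGAAA, in 12 (30.0%), beside 23.2%. A match is a description of the letters in the window only. The 250 bases before the start site are shown for PSMB9 (chr6:32853942-32854191, plus strand) and PSMB10 (chr16:67936851-67937100, minus strand), the immunoproteasome genes at opposite ends of the log2FC, with matches of these motifs in capitals. PSMB9 held 1 match, of TGACNNNGC on the opposite strand, and PSMB10 held 2, both of AANNGAAA.
PSMB9: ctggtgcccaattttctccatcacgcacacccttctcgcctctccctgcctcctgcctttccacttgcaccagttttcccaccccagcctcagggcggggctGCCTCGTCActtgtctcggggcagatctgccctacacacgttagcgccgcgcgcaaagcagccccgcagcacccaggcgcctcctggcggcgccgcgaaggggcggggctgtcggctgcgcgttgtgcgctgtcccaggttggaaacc
PSMB10: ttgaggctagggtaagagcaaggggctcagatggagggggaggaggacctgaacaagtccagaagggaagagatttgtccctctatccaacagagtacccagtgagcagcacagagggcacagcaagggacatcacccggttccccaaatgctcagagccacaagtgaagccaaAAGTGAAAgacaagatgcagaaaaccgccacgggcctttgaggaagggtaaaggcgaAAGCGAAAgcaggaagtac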

How the data were processed

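RNA pools of THP1 cells, each from 5 experiments, were measured on 4 Agilent arrays. Per the series description, siRNA3 and siRNA4 of the sample titles are siRNA-A and siRNA-B. The authors extracted the spots with Agilent Feature Extraction 10.5.1.1 and deposited an intensity for each spot, equal to the median pixel signal in 100% of spots and neither background corrected nor normalized. The deposited quality weight is a score, and how it was set is not given in the sources used here. Each scanner table has 61 columns, of which 48 found no use here.

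Control spots (1377 of 44495) and spots with a weight of 0 on any array were left out, and identical spots were averaged on the log2 scale. The 26219 probes entered 1 fit of knockdown against control, weighted as deposited, in limma (version 3.58.1, under R 4.3.3), two-sided. A gene was called at an unadjusted p under 0.005, the threshold of the study, and p adjusted by Benjamini-Hochberg over the whole array are given too. Pools are separate samples, and p measure the spread between the pools of a group. Those pools differ in siRNA as well as in array, and these sources of spread cannot be told apart. Variation between the experiments within a pool cannot be estimated from these arrays, so p do not measure it. Number of arrays limits the precision. The brightest probe stood for its gene. Names are those of the array. Cyclic loess (or quantile) normalization of probe means was set beside the unnormalized values. The fit was tested on simulated data with independent noise. These had no array offsets and no trend with brightness, so the simulation does not bear on such features of the real arrays.

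Values in every array are given for the catalytic subunits and those they replace, for the highest and lowest log2FC of each role, for the largest difference of each partner list and for TAP1. Members and lists were chosen with earlier results of these data known. Other genes are named with their log2FC, after their values were seen, and some genes of the lists are not reported here singly.
Alternatives were background-subtracted signal unscaled or scaled to the 75th percentile, normexp (offset 50) followed by quantile normalization, no weights, an intensity trend, a filter on dim probes, the mean over all probes of a gene, other thresholds, single spots with the methods' t-test over identical spots, and each array left out in turn, where the lone array was assumed to vary like the others.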

Additional observations from a re-analysis of the deposited data

How the results depend on the processing

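No proteasome gene passed an unadjusted p under 0.005 in limma under any of the 13 alternative fits, nor at an adjusted p under 0.05 or on single spots with the methods' t-test; at an unadjusted p under 0.05, 0 were higher and 2 lower, PSMA4 and PSMD4, which became 1 (PSMD4) with the scaled signal, 0 with the unscaled signal or without siRNA-A or either control array, and 4 without siRNA-B. Of 286 alternative values for the genes given by array, 254 kept their sign and 32 changed it, in 12 genes whose difference was not called. PSMB9 stayed above 0, and PSMA4, PSMB7, PSMB10, PSMD4, PSME1, PSMG4, TXNL1, RPS27A and UFD1L below 0, under all 13, but with an array left out the range was 0.047 to 0.246 for PSMB9, -0.440 to -0.202 for PSMA4, -0.193 to -0.025 for PSMB7, -0.260 to -0.014 for PSMG4, -0.434 to -0.209 for RPS27A and -0.307 to -0.114 for UFD1L. The cause of these changes was not tested.

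Both knockdown arrays were above both controls for 1 gene in the main setting, beside 15.0% of all genes. They were so for 9 with quantile, beside 3881 of 17938 genes, and 10 with cyclic loess, beside 21.4%. The count was 7 with the scaled background-subtracted signal, 12 with normexp, and 1 to 15 with an array left out. Of these, the 15 without siRNA-A stood beside 38.3% of all genes and the 1 without siRNA-B beside 24.5%. Both knockdown arrays were below both controls for 13 genes, beside 21.2% of all genes. The count was 9 with quantile, beside 3486 of 17938 genes, and 10 with cyclic loess, beside 20.2%. It was 8 with the unscaled background-subtracted signal, 7 with normexp, and 14 to 31 with an array left out, where fewer arrays have to be separated. The 31 without siRNA-B stood beside 47.0% of all genes and the 16 without siRNA-A beside 32.1%. For the other settings the share of all genes is not available here, so their counts are not read as a difference. The immunoproteasome median of -0.05 became -0.0032 with quantile, 0.0048 with cyclic loess, 0.0022 with the scaled signal, -0.028 with the unscaled signal and -0.0045 with normexp. The activator median of -0.06 became 0.011, 0.012, -0.012, -0.042 and 0.043 in that order, and -0.107 to -0.030 with an array left out. With an array left out the 19S median ranged from -0.125 to 0.020, that of the core alpha ring from -0.292 to -0.089, that of the core beta ring from -0.133 to 0.070 and that of the assembly chaperones from -0.101 to 0.166. The median of the ubiquitin list, -0.087, became 0.0042 with quantile, -0.026 with cyclic loess and -0.143 with the unscaled signal. With an array left out it ranged from -0.135 to -0.075.

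Signs changed for PSMB8 with cyclic loess (0.0048) and the scaled signal (0.0022), for PSMB5 with the unscaled signal (-0.014), for PSMA1 with quantile (0.055), cyclic loess (0.051) and normexp (0.017), for PSMB4 with the scaled (-0.0011) and unscaled signal (-0.032), for PSMB1 with quantile (0.025), and for NFE2L1 with quantile (0.012), cyclic loess (0.017), the scaled (0.041) and unscaled signal (0.010) and normexp (0.037). With an array left out the range was -0.072 to 0.124 for PSMB5, -0.170 to 0.017 for PSMB6, -0.101 to 0.071 for PSMA1, -0.022 to 0.166 for PSMB4, -0.337 to 0.0059 for PSMB1, -0.025 to 0.085 for PSMD3, -0.035 to 0.276 for PSME4, -0.022 to 0.262 for PSMG2, -0.111 to 0.063 for NFE2L1, -1.01 to 0.094 for GBP2 and -0.054 to 0.128 for TAP1. Signal over background limits only PSMB11, as the other 45 genes were well above background on every array.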

Other observations

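Further analysed probes existed for 11 of the 46 proteasome genes, 12 probes in all, 1 of them not well above background on every array. Their log2FC ranged from -0.30 to 0.07, and they differed from the brightest probe of the same gene by -0.32 to 0.18. The widest gap was in PSMB2, a structural beta subunit, where the brightest probe gave 0.02, a second one -0.10 and the dimmest -0.30 (95% confidence interval -0.56 to -0.03, adjusted p = 0.578 in limma).

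Probes of PSMD6 and PSMD7, subunits of the 19S lid, were each printed on 10 spots. Within an array the log2 intensity of the identical spots had an SD of 0.20 to 0.25 for PSMD6 and 0.23 to 0.27 for PSMD7. The knockdown minus control difference of single spots ranged from -0.18 to 0.0081 for PSMD6 and from -0.13 to 0.03 for PSMD7, so that single spots of the same probe disagreed in sign.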
